A study of Homo sapiens with 18 samples.

Results

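RNA-seq was used to follow 8 genes of DNA damage tolerance, POLH, POLI, REV1, REV3L, MAD2L2, RAD18, USP1 and SLFN11, across 6 ovarian cancer cell lines. They were chosen by symbol, and all 8 were present among the 12853 genes of the deposited table. The lines form 3 pairs of a platinum-sensitive line and a resistant counterpart, with 3 libraries per line and 18 in all. PEO1 (sensitive) and PEO4 (resistant) came from 1 patient with high-grade serous ovarian cancer, on either side of the onset of clinical resistance, and that patient had already received platinum when PEO1 was taken. Ascites of another such patient gave PEA1 (sensitive), when no platinum had yet been given, and PEA2 (resistant), once the cancer had come back and resisted treatment. A2780 (sensitive) is labelled as an endometrial/ovarian cancer line, and CP70 (resistant) was derived from it in vitro. Each group is thus a single line, and a difference between lines of a pair cannot be told apart from any other difference between those 2 lines. All lines grew in RPMI-1640 with glutamine and fetal bovine serum, and the sample labels name no drug exposure, although the series' design text speaks of cisplatinum treatment. The labels do not say whether the libraries of a line came from separate cultures, so every p-value measures only the spread between these libraries.

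Platinum drugs leave bulky adducts and crosslinks on DNA that stop the replicative polymerases. In translesion synthesis, the RAD18 ubiquitin ligase marks the sliding clamp PCNA at a stalled fork, and the mark recruits specialised polymerases that copy across the lesion. POLH and POLI encode Y-family polymerases that insert bases opposite damaged templates. REV1 is a scaffold for these polymerases, and REV3L (the catalytic subunit) and MAD2L2 (also called REV7) belong to polymerase zeta, which extends from the inserted base. USP1 removes ubiquitin from PCNA and so ends the signal. SLFN11 works the other way: it is recruited to stressed forks and blocks replication, and its loss is known from many cancer cell lines that tolerate DNA-damaging drugs.

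The bases just upstream of the annotated start are shown for 3 of the genes, because they span the patterns described below: SLFN11 had at most 1 read per library in 1 pair of lines and varied most of the 8, REV3L moved in opposite directions in different pairs, and USP1 varied little. The sequences were taken from the RefSeq promoter table (build GRCh38) and placed by an exact and single match on GRCh37, at chr17:33700721-33700890 (minus strand), chr6:111804919-111805164 (minus strand) and chr1:62901816-62901967 (plus strand). Capitals mark CG dinucleotides, the sites of DNA methylation.
SLFN11: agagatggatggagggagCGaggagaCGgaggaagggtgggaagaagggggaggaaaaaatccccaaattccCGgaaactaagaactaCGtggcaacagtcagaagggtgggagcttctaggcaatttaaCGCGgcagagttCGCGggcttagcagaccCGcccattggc
REV3L: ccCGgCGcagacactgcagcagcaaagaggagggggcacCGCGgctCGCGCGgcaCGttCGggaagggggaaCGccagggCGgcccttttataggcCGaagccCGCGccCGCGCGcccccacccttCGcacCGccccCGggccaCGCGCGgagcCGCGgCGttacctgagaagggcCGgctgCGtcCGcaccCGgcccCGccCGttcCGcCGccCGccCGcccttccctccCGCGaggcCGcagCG
USP1: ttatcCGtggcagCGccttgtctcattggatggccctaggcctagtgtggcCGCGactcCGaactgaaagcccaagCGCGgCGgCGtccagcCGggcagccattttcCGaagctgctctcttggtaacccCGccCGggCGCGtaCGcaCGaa
These stretches hold 9, 40 and 17 CG dinucleotides. In the full 250 bases before the RefSeq start, SLFN11 had 15 CG dinucleotides, and 57.1% of 35116 RefSeq promoters had fewer. The first REV3L promoter had 40 (97.8% had fewer) and the first USP1 promoter had 30 (87.6% had fewer). Over all promoters the median was 11. Short motifs were searched on both strands in the same window. The ETS motif CCGGAAG was present in the promoters of USP1, RAD18 and POLI and in 8.52% of all promoters. The E2F-type motif TTTCCCGC was present in the second REV3L promoter and in that of POLI, against 1.39% of all promoters. Neither TTTCGCGC (0.439% of promoters), nor TTTGGCGC (0.550%), nor the core of the interferon-stimulated response element (3.02%) occurred in a promoter of the 8 genes. A match is a match of letters in this window and was not set against binding.

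Sequencing depth ranged from 1344098 to 7067336 reads on listed genes per library, with the 3 PEA1 libraries between 1344098 and 1670866. Values are log2 CPM, reads relative to the scaled size of the library on a log2 scale, and 3 reads correspond to 0.452 to 2.18 CPM, a limit that covers counting error only. Within pairs, log2FC is the resistant minus the sensitive line, and a gene is called changed at an FDR below 0.05 (limma, Benjamini-Hochberg over all 12853 genes) and differentially expressed when |log2FC| is also above 2. Markers of the labelled tissue did not hold in every line. In A2780 the 9 epithelial and serous markers summed to 2.24 to 3.13 CPM, PAX8 had 0 reads and KRT18 had 3 reads in each library, while in PEO1 their sum was 7498 to 8508. Of 6 leukocyte markers only PTPRC was listed, with 46 to 70 reads per library in PEA2 and at most 2 in any library of the other lines.

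Per kilobase of exon, USP1 was the highest of the 8 genes in all 6 lines. The length counted every annotated exon of a gene, 3869 bases for USP1, 5431 for MAD2L2 and 9358 for POLI. It can exceed the length of the transcript in use, so levels compare between genes only roughly. Its mean log2 level per kilobase was 5.02 (PEA2) to 6.04 (PEO4), and it exceeded the next gene by 2.29 to 2.87 log2 units. POLI was the lowest in 4 lines, with a log2 level per kilobase of -0.43 in PEA1. SLFN11 was the lowest in A2780 and CP70, where its position is set by libraries of 0 or 1 reads.

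**Figure D1:**
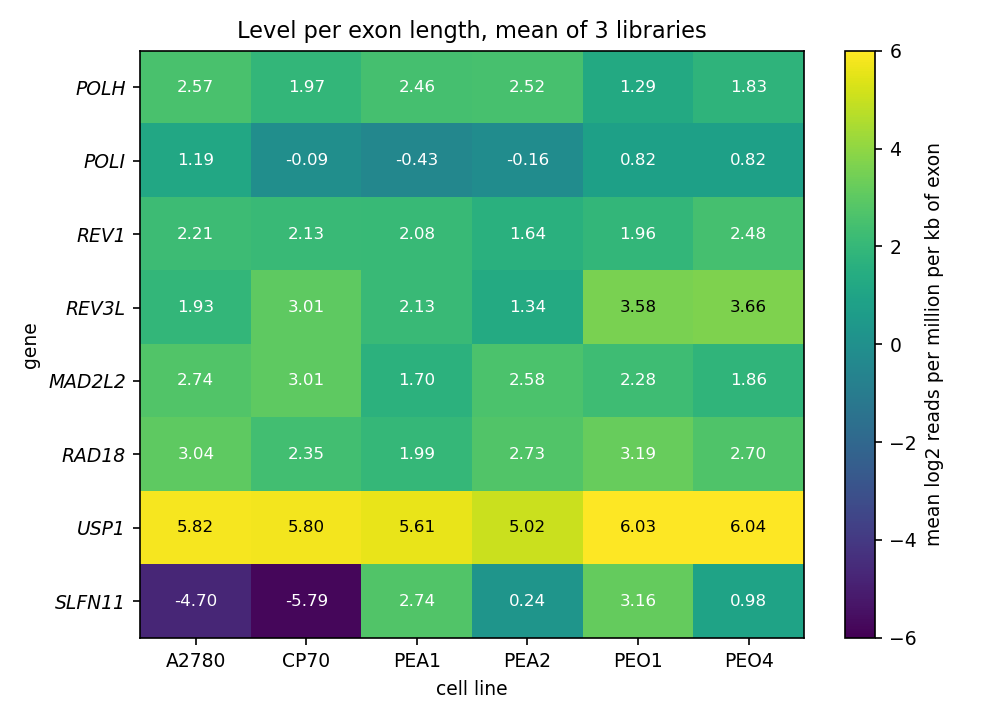
Mean log2 CPM per kilobase of exon (colour and printed value, n = 3 libraries) for the 8 genes (rows) in the 6 lines (columns). USP1 was the highest in every line, at 5.02 to 6.04, and SLFN11 ran from 3.16 in PEO1 to values set by 0 or 1 reads in A2780 and CP70.

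Between lines, SLFN11 had the widest range of the 8 genes. Its extremes were PEO1 and CP70, where it had 0 reads, so the range is known only as a bound of at least 80.2-fold (against 3 reads per library). REV3L followed with a range of line means of 2.32 log2 units (61.4% of genes smaller), against a median of 1.88 over all genes. The other 6 genes stayed below that median, from POLI at 1.63 to USP1 at 1.02 (14.6% of genes smaller) and REV1 at 0.85 (8.61% smaller). When the 6 lines were ordered by mean for each gene, 10 of the 40 steps between neighbouring lines passed an FDR of 0.05, against 33.3% of such steps over all genes. No neighbouring step passed for REV1, MAD2L2 or RAD18 (limma), where 0, 0 and 2 had an unadjusted p below 0.05 and 0, 0 and 1 passed with voom weights.

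**Figure D2:**
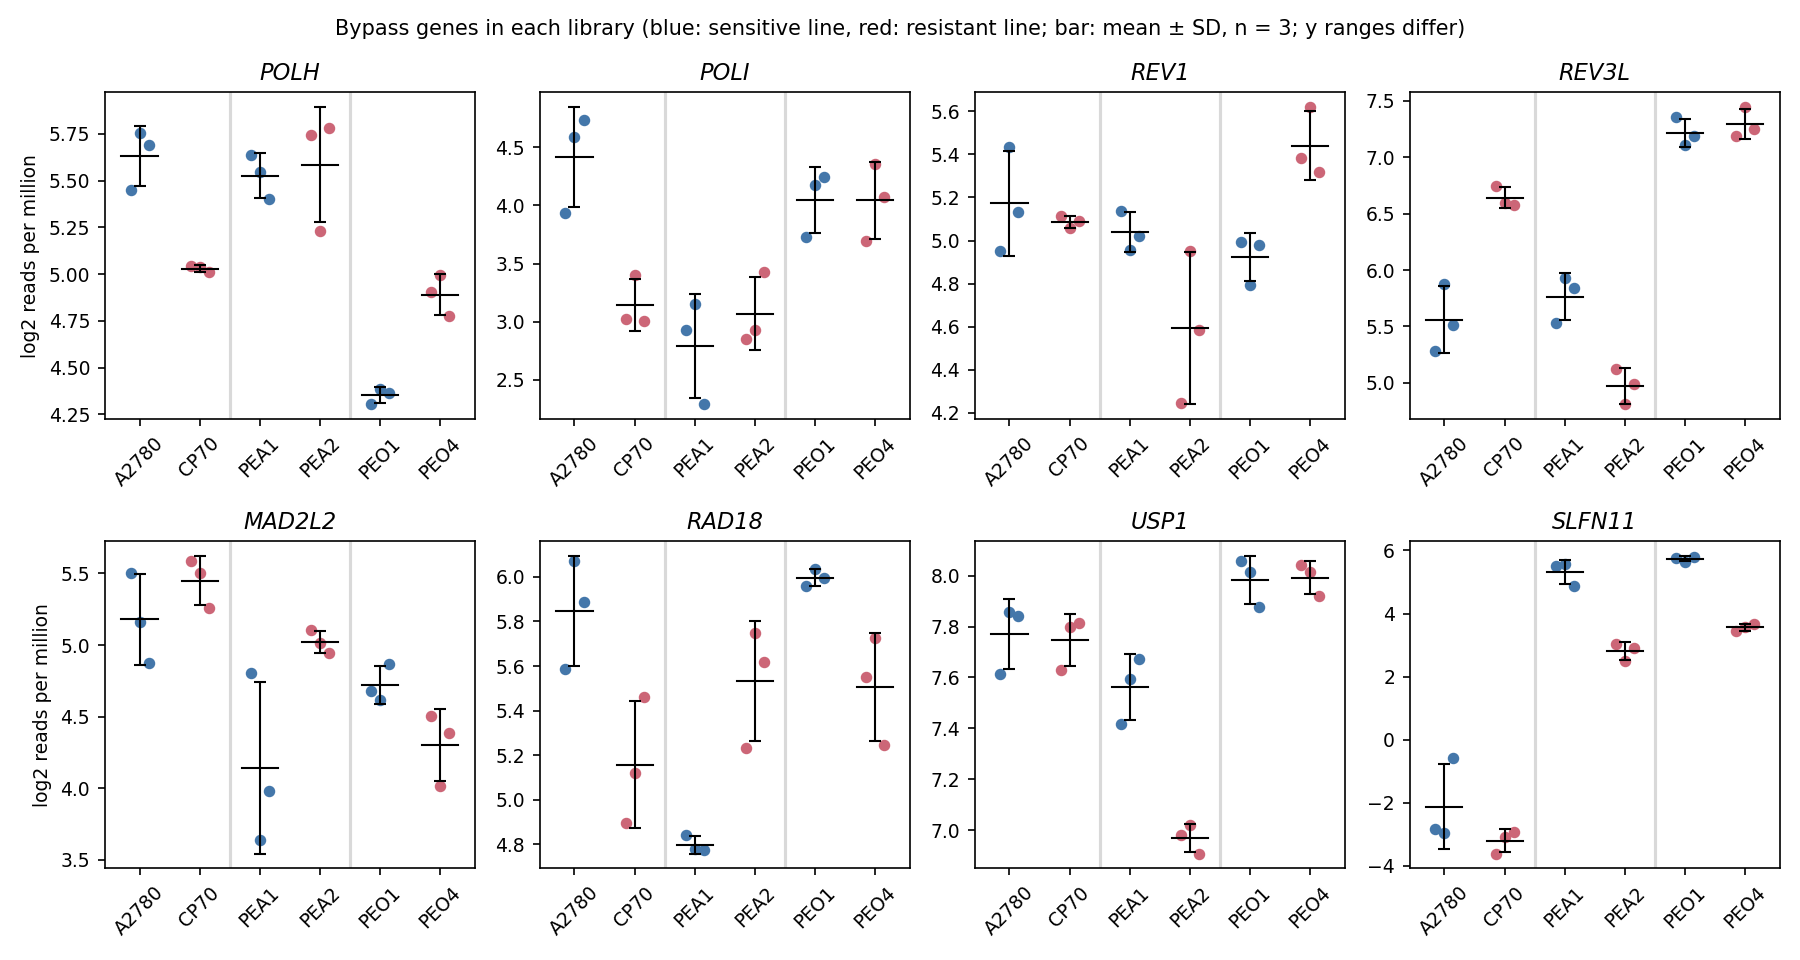
Log2 CPM (y axis, with its own range in each panel) of the 8 genes in each library of the 6 lines (x axis). Points are libraries (blue sensitive, red resistant) and bars are mean ± SD (n = 3). SLFN11 lay at 5.64 to 5.80 in PEO1 and at 3.45 to 3.68 in PEO4, and no library of A2780 or CP70 held more than 1 read.

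Of the 8 genes, 4 were changed between A2780 and CP70 (39.9% of all genes were), 6 between PEA1 and PEA2 (61.9%) and 4 between PEO1 and PEO4 (41.5%). In the A2780 pair 1 was higher and 3 were lower in CP70, where 22.2% of all genes were called higher and 17.7% lower. In the PEA pair 2 were higher and 4 lower in PEA2, against 32.5% and 29.4% of all genes. In the PEO pair 2 were higher and 2 lower in PEO4, against 19.6% and 21.9%. No share of the 8 genes was tested against that of all genes. Their median log2FC was -0.34, -0.19 and 0.0026 for CP70, PEA2 and PEO4, where the median of all genes was -0.025, 0.0053 and -0.017. Without SLFN11, which was at the detection floor in both lines of the A2780 pair, the median there was -0.085. Only SLFN11 was differentially expressed, in PEA2 (14.1% of all genes) and in PEO4 (6.22%). None of the 8 was in CP70 (9.06%), where the largest |log2FC| was 1.28 (limma), and the count was also 0 with voom weights. Each of the 8 genes was changed in at least 1 pair, 5 in 2 or more and RAD18 alone in all 3. None was changed in all 3 pairs in 1 direction, and 4 (POLH, REV1, REV3L and RAD18) changed in opposite directions in different pairs. These counts across pairs were not made for all genes, so they cannot be called particular to the 8.

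**Figure D3:**
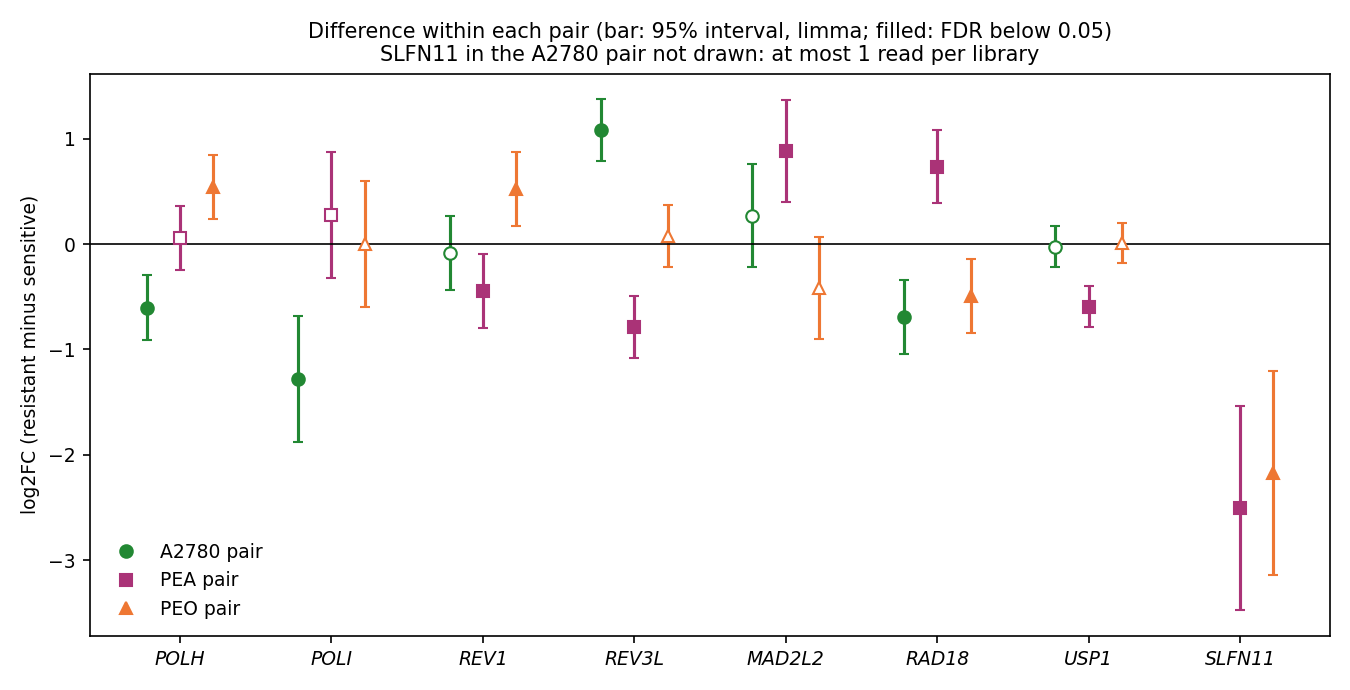
Log2FC (y axis, resistant minus sensitive) of the 8 genes (x axis) in the A2780 (circles), PEA (squares) and PEO (triangles) pairs, with 95% confidence intervals from limma (3 libraries per line) and filled symbols for an FDR below 0.05. REV3L lies at 1.08 (circle) and -0.79 (square), RAD18 lies above 0 in the PEA pair only, and SLFN11 lies below -2 in both serous pairs.

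RAD18, which starts the bypass signal, was lower in the resistant line of 2 pairs and higher in that of the other. The gene (ENSG00000070950) spans chr3:8817088-9005457 on GRCh37. Log2 values were 5.58, 6.07 and 5.89 in A2780 and 4.89, 5.12 and 5.46 in CP70. They were 4.84, 4.78 and 4.77 in PEA1 and 5.23, 5.75 and 5.62 in PEA2. They were 5.959, 6.037 and 5.996 in PEO1 and 5.55, 5.72 and 5.25 in PEO4. The 2 lines did not overlap in any of the pairs, and the lowest line overall was PEA1 and the highest PEO1. RAD18 fell by 0.69 in the A2780 pair (SE 0.17, FDR = 0.00237, limma) and by 0.49 in the PEO pair (SE 0.17, FDR = 0.0236, limma). It rose by 0.74 in the PEA pair (SE 0.17, FDR = 0.000780, limma), a 1.67-fold difference. The call in the PEO pair was lost without PEO1 replicate 2 (FDR = 0.0655), PEO1 replicate 3 (0.0548) or PEO4 replicate 3 (0.132, log2FC -0.36). The PEA difference exceeded that of the A2780 pair by 1.43 (FDR = 3.67e-05), and the PEO difference was below that of the PEA pair by 1.23 (difference -1.23, FDR = 0.000180).

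The ubiquitin-conjugating partners of RAD18, UBE2A and UBE2B, and its target PCNA were looked at for this role after their values were seen. PCNA was lower in every resistant line, with a log2FC of -0.52 for CP70, -0.38 for PEA2 and -1.63 for PEO4 (FDR 9.06e-05, 0.000970 and 3.11e-11, limma). UBE2A rose by 0.60 in CP70 (FDR = 0.000254) and fell by 0.39 in PEA2 (0.00567) and by 0.53 in PEO4 (0.000792). UBE2B did the reverse, with a log2FC of -0.44, 0.75 and 0.65 (FDR 0.0392, 0.000594 and 0.00340). The 2 closely related enzymes thus changed in opposite directions in each pair in the main fit. Their single calls were not followed through the alternative fits or with a library left out. How reads that match both genes were assigned was not tested.

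USP1, the deubiquitinase that clears PCNA, changed in the PEA pair alone among the 3. The gene (ENSG00000162607) spans chr1:62901968-62917475 and overlaps no other annotated gene. Log2 values were 7.42, 7.60 and 7.67 in PEA1 and 6.98, 7.02 and 6.91 in PEA2, so that every PEA2 library lay below every library of the other lines. USP1 fell by 0.59 in this pair (SE 0.09, FDR = 1.34e-05, limma), and was 1.51-fold lower in PEA2. In the A2780 pair the lines overlapped, and the log2FC was -0.024 (95% confidence interval -0.22 to 0.17). PEO1 and PEO4 also overlapped, and their log2FC was 0.0090 (-0.18 to 0.20). The PEA difference stood apart from that of the A2780 pair by -0.57 (FDR = 0.000912) and the PEO difference lay above the PEA one by 0.60 (FDR = 0.000534).

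Of the inserter polymerases, POLH was lower in CP70 and higher in PEO4. POLH (ENSG00000170734, chr6:43543922-43588260) encodes polymerase eta, whose loss causes a variant form of xeroderma pigmentosum. Its log2 values were 5.45, 5.76 and 5.69 in A2780 and 5.04, 5.04 and 5.01 in CP70. They were 4.30, 4.39 and 4.36 in PEO1 and 4.90, 4.99 and 4.78 in PEO4. The lines did not overlap in either pair, and PEO1 held the lowest values of all lines. The log2FC was -0.60 in CP70 (SE 0.15, FDR = 0.00233, limma) and 0.54 in PEO4 (SE 0.15, FDR = 0.00535, limma). In the PEA pair the values were 5.64, 5.54 and 5.40 against 5.74, 5.23 and 5.78, which overlapped (log2FC 0.059, 95% confidence interval -0.25 to 0.36). The A2780 difference lay below that of the PEO pair by 1.14 (FDR = 0.000124) and below that of the PEA pair by 0.66 (FDR = 0.00983). PEO4 remained below A2780, PEA1 and PEA2 in mean level (4.89 against 5.53 to 5.63).

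POLI, which encodes polymerase iota, had the largest fall in CP70 among the detected genes of the 8. The gene (ENSG00000101751) spans chr18:51795887-51847636. Its log2 values were 3.93, 4.59 and 4.73 in A2780 (54, 93 and 59 reads) and 3.02, 3.40 and 3.004 in CP70 (49, 44 and 30 reads), with no overlap. The log2FC was -1.28 (SE 0.29, FDR = 0.00119, limma), a 2.42-fold lower level in CP70. POLI was thinly covered in the PEA lines, with 8 to 12 reads in PEA1 and 13 to 26 in PEA2, and the lines overlapped (log2FC 0.28, 95% confidence interval -0.32 to 0.87). For PEO4 against PEO1 the log2FC was -0.0037 (-0.60 to 0.59). The A2780 difference lay below the PEA one by 1.55 (FDR = 0.00272) and below the PEO one by 1.27 (FDR = 0.0135).

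REV1, the scaffold that holds the polymerases together, varied least between lines. The gene (ENSG00000135945) spans chr2:100016938-100106497. Log2 values were 5.14, 4.95 and 5.02 in PEA1 and 4.24, 4.95 and 4.59 in PEA2, where replicate 2 lay just below the lowest PEA1 library. The log2FC was -0.45 (SE 0.17, FDR = 0.0266, limma), but the call was lost when the pair was fitted alone (FDR = 0.112), with voom weights (0.114), and without PEA1 replicate 1 (0.0791), PEA2 replicate 1 (0.167, log2FC -0.27) or PEA2 replicate 3 (0.0543). PEO1 and PEO4 did not overlap, with values of 4.99, 4.79 and 4.98 against 5.38, 5.62 and 5.32. REV1 rose by 0.52 there (SE 0.17, FDR = 0.0170, limma), a call lost without PEO1 replicate 2 (0.0693) or PEO4 replicate 2 (0.0843). The A2780 pair overlapped (log2FC -0.085, 95% confidence interval -0.43 to 0.26). The PEO difference lay above the PEA one by 0.96 (FDR = 0.00166) and above the A2780 one by 0.60 (FDR = 0.0415). The latter lost its call without PEO4 replicate 2 (FDR = 0.107), A2780 replicate 2 (0.115) and in 8 of the other 10 fits that left out 1 library.

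REV3L, the catalytic subunit of polymerase zeta, was higher in CP70, lower in PEA2 and highest overall in the PEO lines, which overlapped. The gene (ENSG00000009413) spans chr6:111620231-111804918. Log2 values were 5.29, 5.88 and 5.52 in A2780 and 6.749, 6.597 and 6.575 in CP70. They were 5.53, 5.93 and 5.84 in PEA1 and 5.13, 4.81 and 4.99 in PEA2. Neither pair overlapped, and PEA2 held the lowest values of all lines. REV3L rose by 1.08 in the A2780 pair (SE 0.14, FDR = 2.84e-06, limma), which is 2.12-fold, and fell by 0.79 in the PEA pair (SE 0.14, FDR = 6.84e-05, limma). In the PEO pair the values were 7.35, 7.11 and 7.19 in PEO1 and 7.19, 7.45 and 7.25 in PEO4, which overlapped (log2FC 0.079, 95% confidence interval -0.21 to 0.37). The 3 pairs all differed from each other, the PEA pair from the A2780 pair by -1.87 (FDR = 1.38e-07), the PEO pair from the A2780 pair by -1.001 (FDR = 0.000338) and the PEO pair from the PEA pair by 0.87 (FDR = 0.000930). In the order of levels, PEO1 and PEO4 (means 7.22 and 7.30) did not differ, CP70 (6.64) differed from both its neighbours, and A2780 (5.56) and PEA1 (5.76) did not differ.

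MAD2L2, the accessory subunit of polymerase zeta and also a part of the shieldin complex of double-strand break repair, changed in the PEA pair only, where it moved opposite to REV3L. The gene (ENSG00000116670) spans chr1:11718975-11751868. Log2 values were 4.81, 3.64 and 3.98 in PEA1 (38, 17 and 27 reads) and 5.10, 5.02 and 4.95 in PEA2 (64, 112 and 67 reads). PEA1 replicate 1 lay close to PEA2 and the other PEA1 libraries well below, without overlap. MAD2L2 rose by 0.88 in this pair (SE 0.23, FDR = 0.00269, limma). In the PEO pair the values were 4.68, 4.61 and 4.87 in PEO1 and 4.502, 4.016 and 4.385 in PEO4. These did not overlap but the difference did not pass (log2FC -0.42, 95% confidence interval -0.90 to 0.065, FDR = 0.160, limma). In the A2780 pair the lines overlapped (log2FC 0.27, -0.21 to 0.76). The PEO minus the PEA difference was -1.30 (FDR = 0.00211).

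SLFN11, which blocks stressed forks, was lower in the resistant line of both serous pairs and had at most 1 read in any library of the A2780 pair. The gene (ENSG00000172716) spans chr17:33677324-33700720 and overlaps no other annotated gene. PEA1 held 62, 66 and 51 reads (log2 values 5.50, 5.57 and 4.89) and PEA2 held 15, 19 and 16 (3.05, 2.49 and 2.92). PEO1 held 166, 139 and 370 reads (5.76, 5.64 and 5.80) and PEO4 held 31, 35 and 31 (3.45, 3.57 and 3.68). In both pairs the lines were far from overlapping. SLFN11 fell by 2.503 in the PEA pair (SE 0.46, FDR = 0.000103, limma) and by 2.17 in the PEO pair (SE 0.46, FDR = 0.000772, limma), which are 5.67-fold and 4.51-fold lower levels. The 2 differences did not differ detectably from each other (0.33, 95% confidence interval -1.04 to 1.70). The SE and this interval use a spread shared by all 6 lines, including A2780 (SD 1.34) and CP70 (0.36) at 0 or 1 reads. Within the serous lines the SD ran from 0.085 in PEO1 to 0.37 in PEA1. In bulk RNA, fewer cells with the transcript and less transcript per cell cannot be told apart.

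In the A2780 pair, SLFN11 had 0, 0 and 1 reads in A2780 and 0 reads in each CP70 library, so no fold change is given for that pair. The fitted difference missed the threshold (FDR = 0.0713, limma), and without A2780 replicate 1 (0.0276) or replicate 2 (0.0182) it passed, although the only read of the pair was in A2780 replicate 3. Taken against 3 reads per library in A2780, SLFN11 was at least 54.1-fold higher in PEO1, 41.1-fold in PEA1, 11.8-fold in PEO4 and 7.04-fold in PEA2. Against CP70 the bounds were 80.2-fold, 61.0-fold, 17.6-fold and 10.4-fold.

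The other listed Schlafen genes, which lie beside SLFN11 and belong to an interferon-responsive family, also had few or no reads in A2780 and CP70. SLFN5, SLFN11, SLFN12 and SLFN13 lie between 33570090 and 33775856 on chromosome 17 (GRCh37), and no library of A2780 or CP70 held more than 6 reads for any of them. SLFN12 and SLFN13 had 0 reads in all 6 libraries, and SLFN5 had 0 reads in A2780 and 6, 3 and 0 in CP70. The 7 other listed genes within 300 kb of the cluster, a window chosen after the values were seen, held 18 to 2237 reads per library in the same lines. In the serous pairs none of the other Schlafen genes fell at an FDR below 0.05. The spread in these tests was shared with A2780 and CP70, whose values lay at or near the floor. SLFN5 rose by 1.51 in the PEA pair (SE 0.50, FDR = 0.0125, limma), from 140, 158 and 177 reads in PEA1 to 556, 891 and 782 in PEA2, and had a log2FC of -0.36 in the PEO pair (FDR = 0.598). SLFN13 had a log2FC of -0.36 (FDR = 0.256) and -0.20 (0.587), and SLFN12 of -0.84 (0.0666) and 0.18 (0.744). By library values, the resistant line was lower without overlap for SLFN13 in both serous pairs, SLFN12 in the PEA pair and SLFN5 in the PEO pair. SLFN5 was higher without overlap in PEA2, and SLFN12 overlapped in the PEO pair. How often the lines of a pair do not overlap over all genes was not counted, so no fall is read from this. Mean log2 values of SLFN13 were 6.47 in PEA1 and 6.11 in PEA2, and 5.03 in PEO1 and 4.83 in PEO4. Differences between these genes and SLFN11 were not tested.

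**Figure D4:**
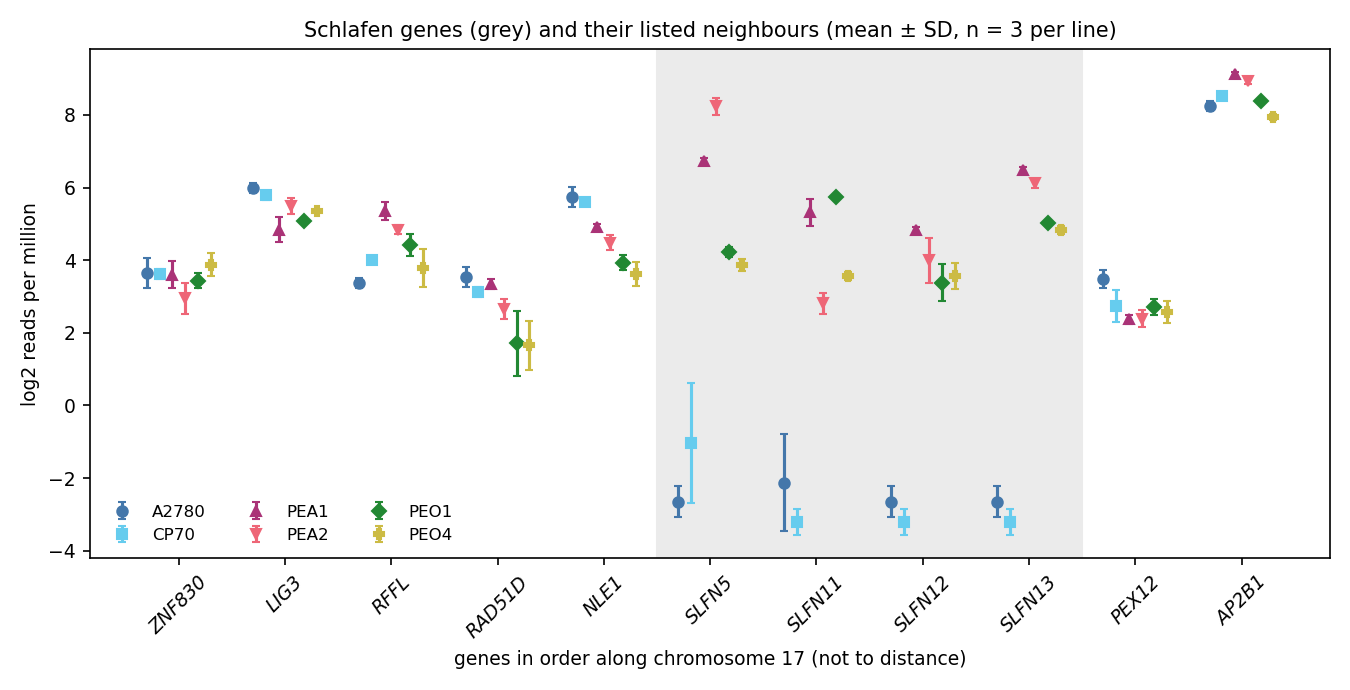
Log2 CPM (y axis, mean ± SD, n = 3) of the Schlafen genes (grey band) and the 7 other listed genes within 300 kb, in chromosomal order (x axis, not to distance), for the 6 lines. The Schlafen genes held at most 6 reads per library in A2780 and CP70, while their neighbours were read in every line.

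SLFN11 is itself known as an interferon-stimulated gene, and 13 of 14 interferon-response genes of a comparison list were present. All 13 were higher in PEO4 than in PEO1 (19.6% of all genes were), with a median log2FC of 4.16, in the pair where SLFN11 fell by 2.17. In the PEA pair 8 were higher and 2 lower (32.5% and 29.4% of all genes), with a median of 0.87. Between A2780 and CP70, 7 were higher and 4 lower (22.2% and 17.7% of all genes). These make 11 calls, while only 10 of the 13 genes were above the floor, so the counts include calls on floor reads. The median of the list was 0.44, or 0.58 without the 3 genes at the floor in both lines. The summed level of the list was 362 to 400 CPM in PEO1 and 2780.2 to 3039.8 in PEO4, and 856 to 922 in PEA1 and 1016 to 1294 in PEA2. It was 366 to 407 CPM in A2780 and 318 to 331 in CP70, so that the sum was lower in CP70 while the median log2FC was above 0.

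Several other features differed between the lines of a pair. Of 16 proliferation genes, 9 were lower and 2 higher in PEO4 (21.9% and 19.6% of all genes), 7 were lower and 4 higher in PEA2 (29.4% and 32.5%), and 3 were lower and 3 higher in CP70 (17.7% and 22.2%). Their summed level was 2856 to 3147 CPM in PEO1 and 2480 to 2822 in PEO4, 3664 to 3724 in PEA1 and 3476 to 3542 in PEA2, and 4704 to 4732 in A2780 and 4794 to 4833 in CP70. The summed epithelial markers were 430 to 588 CPM in PEA1 and 4152 to 4412 in PEA2, 5883 to 7560 in PEO4, and 90.5 to 96.2 in CP70, where 2 of 9 markers had 0 reads. Of 7 fibroblast markers 5 were listed. Their sum was 366 to 447 in PEA1, where COL1A1 carried it and the other 4 had 0 reads, and 3.454 to 6.401 in PEA2. It was 510 to 720 in A2780 and 869 to 1009 in CP70, and 3.26 to 7.39 in PEO1 and 77.5 to 84.1 in PEO4. The part of these features in the changes of the 8 genes was not tested.

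The wider bypass machinery was read through 40 further genes, among them clamp loaders, ubiquitin enzymes, other polymerases, fork remodellers and shieldin, of which 35 were listed. In the A2780 pair 15 were changed (6 higher, 9 lower, median log2FC -0.069, or -0.027 without the 2 at the floor in both lines), with 9 changed without CP70 replicate 1. The leading genes were SMARCAL1 (log2FC -1.39), HLTF (-1.34) and CHAMP1 (-1.33), where SMARCAL1 and HLTF are fork-remodelling translocases and CHAMP1 binds MAD2L2. In the PEA pair 21 were changed (10 higher, 11 lower, median 0.049), led by the polymerase delta subunit POLD4 (1.52), SLFN5 (1.51) and the clamp loader subunit RFC4 (1.22). POLD4 rested on 1 to 4 reads in PEA1 and 7 to 16 in PEA2. Between PEO1 and PEO4 12 were changed (2 higher, 10 lower, median -0.22), led by PCNA (-1.63), RFC4 (-1.22) and the protease SPRTN (-1.08), which clears crosslinked proteins from DNA. RFC4 therefore changed in opposite directions in the serous pairs, as did RAD18 and REV1. SLFN5 counts among the genes higher in CP70 on 6, 3 and 0 reads alone. Of all genes, 22.2% were higher and 17.7% lower in CP70, 32.5% and 29.4% in PEA2, and 19.6% and 21.9% in PEO4. The median log2FC of all genes was -0.025, 0.0053 and -0.017 for CP70, PEA2 and PEO4. The counts by direction were not tested against these shares. No gene of the wider list was differentially expressed, since no |log2FC| in it exceeded 1.63 (limma), and its shares changed (42.9%, 60.0% and 34.3%) were close to those of all genes or below them.

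**Figure D5:**
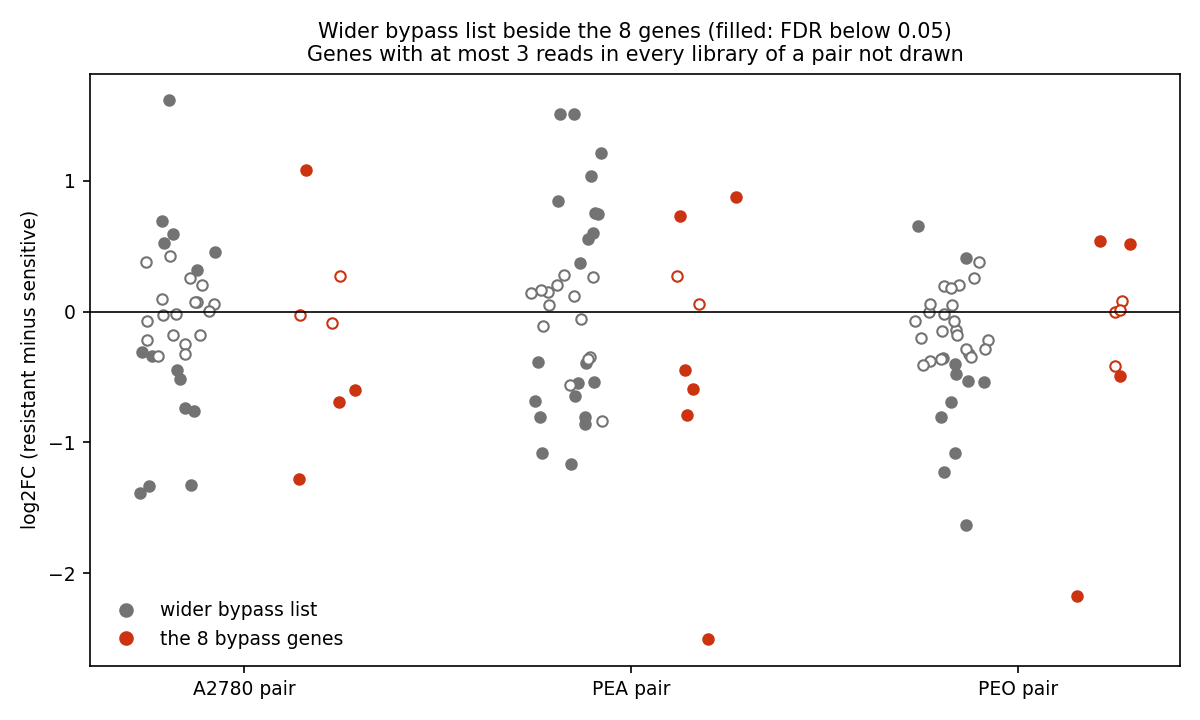
Log2FC (y axis, resistant minus sensitive) of the genes of the wider bypass list (grey) and of the 8 genes (red) in each pair (x axis, points spread sideways for visibility). Filled points have an FDR below 0.05 (limma). The 2 red points below -2 are SLFN11 in the PEA and PEO pairs, and the lowest grey point of the PEO pair is PCNA at -1.63.

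The effect in one pair was set against that in another for every gene. The PEA and A2780 differences stood apart for 5 of the 8 genes (57.5% of all genes), the PEO and A2780 differences for 4 (47.5%) and the PEO and PEA differences for 5 (58.7%). These shares of the 8 genes were close to the shares of all genes. REV3L was the gene for which all 3 comparisons passed. For SLFN11 the comparisons with the A2780 pair rest on at most 1 read per library there and are not read.

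The genes most similar to each of the 8 over the 18 libraries were found by Pearson's r among 11228 genes with a mean log2 value above 2, and are given as a description, since libraries of a line share that line. SLFN11 was closest to DAPK1 (r = 0.983) and LRRC61 (0.979), both of which were near the floor in A2780 and CP70 and lower in PEA2 than in PEA1. REV3L was closest to EMP2 (0.961) and THY1 (0.949), with THY1 at a mean log2 value of 7.34 in PEO1 and -2.28 in PEA2. USP1 was closest to ID2 (0.944) and PRPF38B (0.944), which like USP1 were lowest in PEA2. MAD2L2 was closest to VPS9D1-AS1 (0.936) and PRR14 (0.911), POLH to PSPH (0.928) and ARHGAP4 (0.927), and REV1 to ENSG00000269837 (0.902) and BARD1 (0.877). RAD18 was closest to RPRD1A (0.888) and THUMPD3 (0.877), and POLI to FBXO11 (0.894) and MTMR7 (0.882). None of the 8 genes was among the companions of another.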

How the data were processed

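The authors extracted total RNA, depleted it of ribosomal RNA, made strand-specific libraries, and, per the labels, used Bowtie2, featureCounts and limma with the hg19 genome; versions are not given in the sources used here. They deposited log2 CPM values for 12853 genes in 18 libraries, adding 0.5 reads before the log and scaling library sizes. Counts of whole reads were recovered from 100% of these log2 values (tolerance 0.05 reads) and were used for depth and detection floors (3 reads). The strand setting of the counting was not stated, and genes on the opposite strand overlap POLH, POLI, REV1, REV3L, MAD2L2 and RAD18, so their reads may include those of a neighbour.

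The log2 values were fitted with limma 3.58.1 in R 4.3.3, estimating 1 mean per line for 6 lines and a trend of variance with mean. P-values were two-sided and adjusted over all genes. Gene spans came from GENCODE on GRCh37, with 12642 of the identifiers matched and 211 not. The genes and lists were chosen with earlier results of these data known. The text names all 8 genes, 2 companions for each, the 3 largest non-overlapping changes of the wider list per pair, and all Schlafen genes. The fits were tested on simulated data. Alternatives were fits of single pairs, removal of genes whose mean log2 value was not above 0, quantile normalization, 2 reads added, no trend, a replicate block, |log2FC| above 1, each library left out, and, chosen after seeing the data, voom weights.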

Additional observations from a re-analysis of the deposited data

Results flagged for a closer look

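In 14 tests, the difference between resistant and sensitive lines was itself different between pairs (limma, FDR below 0.05). Between the PEA and A2780 pairs these were POLH (0.66), POLI (1.55), REV3L (-1.87), RAD18 (1.43) and USP1 (-0.57). Between the PEO and A2780 pairs they were POLH (1.14), POLI (1.27), REV1 (0.60) and REV3L (-1.001), where REV1 lost its call in 10 of 12 fits that left out 1 library. Between the PEO and PEA pairs they were REV1 (0.96), REV3L (0.87), MAD2L2 (-1.30), RAD18 (-1.23) and USP1 (0.60). Each value is the log2FC of the pair named first minus that of the pair named second. The comparisons share pairs and so are not independent of each other. Of all genes, 57.5% passed for the PEA against the A2780 pair, 47.5% for PEO against A2780 and 58.7% for PEO against PEA. The shares of the 8 genes were close to these.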

How the results depend on the processing

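Over the alternatives other than leaving out a library, 89 of 90 counts stayed within 1.5 times the reported count. The exception was the number of the 8 genes differentially expressed in the A2780 pair, 2 with |log2FC| above 1 in place of 0. With 1 library left out, the count of changed genes ran from 2 to 4 among the 8 genes in the PEO pair (2 without PEO1 replicate 2) and from 9 to 14 in the wider list in the A2780 pair. Signs turned only for values near 0. With quantile normalization the log2FC became 0.035 for USP1 in the A2780 pair, -0.054 for POLH in the PEA pair and 0.0071 for POLI in the PEO pair (0.0065 with 2 reads added), and the PEO minus A2780 difference of USP1 became -0.000386. With 1 library left out, the range was -0.20 to 0.046 for REV1 and -0.10 to 0.034 for USP1 in the A2780 pair, -0.040 to 0.24 for POLH in the PEA pair, -0.16 to 0.17 for POLI and -0.043 to 0.046 for USP1 in the PEO pair, and -0.025 to 0.11 for the PEO minus A2780 difference of USP1. The replicate numbers did not pair the libraries (correlations of deviations from -0.035 to 0.048), and a replicate block ended the calls of REV1 in the PEA pair (FDR = 0.0510) and of its PEO minus A2780 difference (0.0743, limma) and no other call of the 8 genes. The POLH difference between the PEO and PEA pairs, not called (FDR = 0.0517), passed with quantile normalization (0.0108), without the trend (0.0462) and with 2 reads added (0.0464). The causes were not tested. The 2 planned count-based tests were not run, and voom weights on the recovered reads were used in their place. POLI rested on 8 to 12 reads per library in PEA1, which limits its precision.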
